A study of Homo sapiens with 4 samples.

Results

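The expression of all measured genes was compared between A549 cells with LIMA1 knocked down and A549 control cells, both treated with nutlin-3a. Genes were taken when the mean of their values in those 2 libraries was at least 30, which holds for 12794 of the 42113 gene models deposited. A549 is an established human lung adenocarcinoma cell line. LIMA1 shRNA cells had a short hairpin RNA (shRNA) against LIMA1 stably delivered by lentivirus, control shRNA cells a negative control shRNA, and RNA was taken 24 h after nutlin-3a was given at 10 µM. A further pair of libraries came from the same 2 cell populations left untreated, and is used here only to set beside the nutlin-3a pair. Each of the 4 groups is 1 library, so differences have no replicate check and are given as sizes, with neither a test nor a p-value. Each shRNA is represented by 1 infected population, so what the hairpin did and what already set the populations apart cannot be told apart. The labels name no second LIMA1 shRNA and no rescue.

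The product of LIMA1 is EPLIN, a LIM-domain protein that cross-links and stabilises actin filaments and links the cadherin-catenin complex of epithelial cell junctions to actin. Nutlin-3a is a small molecule that sits in the p53-binding pocket of MDM2, the ubiquitin ligase that marks p53 for degradation, so that p53 accumulates and switches on its target genes. A549 cells are known to lack CDKN2A, which was at 0 in all 4 libraries. The study's stated question was how p53-driven transcription changes when LIMA1 is knocked down.

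Values are the deposited normalized fragment counts, which are not divided by gene length and are compared here only between libraries for the same gene. A difference is LIMA1 shRNA minus control shRNA on the log2(normalized count + 1) scale, and a gene is called higher or lower when it differs by at least 1 in size. Intervals in brackets are exact 95% Clopper-Pearson intervals of the ratio of 2 libraries, and cover counting error only. The LIMA1 shRNA library held 15.2 M fragments and the control shRNA library 15.8 M. Of 14 A549 epithelial markers in the files all 14 were measured, with summed values of 667045 in LIMA1 shRNA cells and 713643 in control shRNA cells. Of these sums the enzyme gene ALDH1A1 made 225725 with LIMA1 shRNA and 287908 with control shRNA. Of 13 leukocyte markers, 6 (CD3D, CD3E, GNLY, MS4A1, NKG7 and PTPRC) were at 0 in both libraries and the list summed to 977 with LIMA1 shRNA and 1040 with control shRNA, of which CD68, a shared-read gene, made 860 with LIMA1 shRNA and 897 with control shRNA. Of 9 endothelial markers 5 were at 0 and the list summed to 3.22 with LIMA1 shRNA and 13.9 with control shRNA. Of 11 fibroblast and smooth muscle markers COL1A2, DCN and FAP were at 0, and the list summed to 1950 with LIMA1 shRNA and 2338 with control shRNA, of which ACTA2 made 1915 with LIMA1 shRNA and 2271 with control shRNA.

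LIMA1 itself had 133 normalized counts in LIMA1 shRNA cells and 866 in control shRNA cells with nutlin-3a, a difference of -2.69 (-2.99 to -2.43). The targeted gene was thus low in the library labelled for its knockdown. LIMA1 shRNA cells had 172 of the 12794 genes higher (1.34%) and 226 lower (1.77%). The counts of each gene list are read against these shares. The lists were chosen with earlier results of these data known, so their counts describe the choice as well as the cells. The median difference was 0.03, the quartiles were -0.14 and 0.19, and 11192 genes (87.5%) lay within 0.5 of 0. In these bulk samples, fewer cells of a kind and less RNA per cell cannot be told apart. The gene nearest inside the size for a call was at 1.00084 on the high side and at -1.0014 on the low side; those nearest outside were at 0.9948 and -0.99992. The share called was largest at low values: 9.52% of the 2961 genes with means of 30 to 150, 1.94% of 3608 at 150 to 500, 0.641% of 4527 at 500 to 2000, 0.914% of 1531 at 2000 to 10000, and 1.796% of the 167 genes above that.

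**Figure D1:**
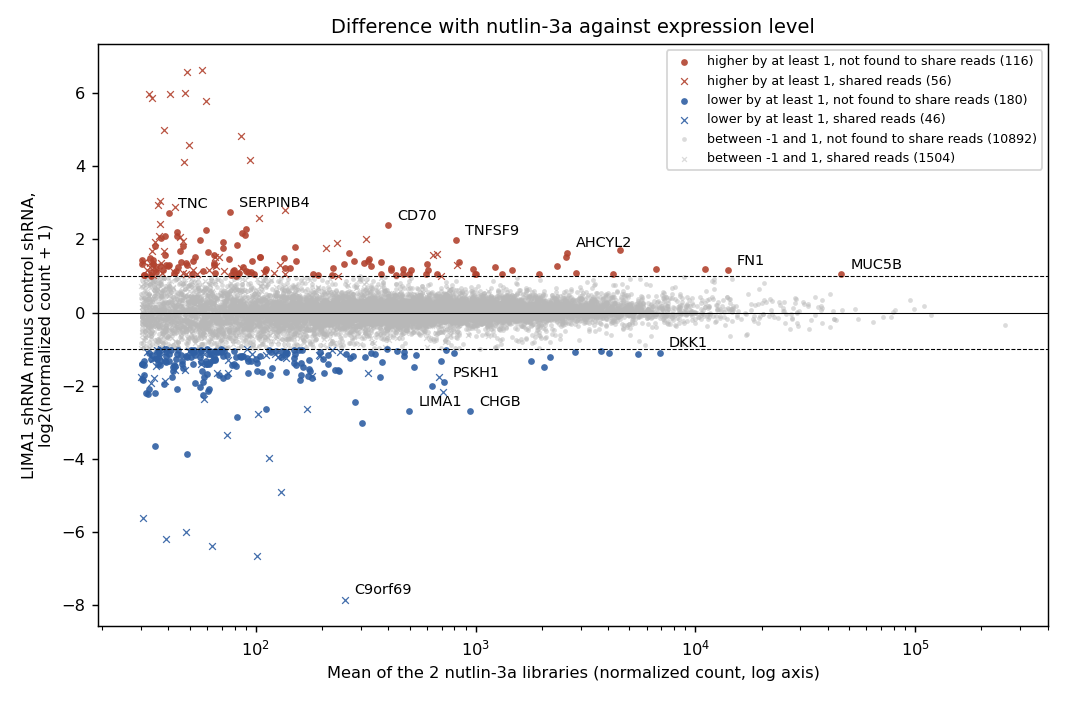
Each point is 1 of the 12794 genes, placed by the mean of the 2 nutlin-3a libraries (normalized count, log axis) and by LIMA1 shRNA minus control shRNA on the log2(normalized count + 1) scale; dashed lines mark -1 and 1, and crosses are genes with shared reads. The 172 higher and 226 lower genes crowd to the left, where values are low, and the most extreme points are crosses.

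Some genes had values that are not whole numbers of fragments in at least 1 of the 2 libraries, as when reads are split between overlapping or near-identical gene models. They are called shared-read genes here and their values are uncertain. Only values between 0.5 and 1000 fragments were checked, so abundant genes such as MUC5B and FN1 were not. They made up 1606 of the 12794 genes (12.6%), 56 of the 172 higher and 46 of the 226 lower genes. The remaining called genes, not found to share reads or not checked, were 116 higher and 180 lower.

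The most strongly higher genes with means of at least 150 and no sign of shared reads were a pair of immune ligand genes. Both belong to the TNF ligand family, whose members bind receptors on T cells and other cells. CD70, the ligand of the T-cell costimulatory receptor CD27, had 670 normalized counts in LIMA1 shRNA cells and 127 in control shRNA cells, 5.27-fold higher (4.35 to 6.43). TNFSF9, which encodes the ligand of the costimulatory receptor 4-1BB, had 1298 in LIMA1 shRNA cells and 329 in control shRNA cells, 3.95-fold higher (3.50 to 4.48). In untreated cells CD70 had 241 in LIMA1 shRNA cells and 31.1 in control shRNA cells, and TNFSF9 had 363 with LIMA1 shRNA and 80.1 with control shRNA. The 2 genes are neighbours on chromosome 19 in the RefSeq gene table; TNFSF14, next to them in the same cluster, had only 11.8 with LIMA1 shRNA and 5.96 with control shRNA. In the ligand family 7 genes were measured, of which these 2 were higher (28.6%, against 1.34% of all genes). TNFSF12 (80.4 in LIMA1 shRNA cells and 167 in control shRNA cells) was lower (14.3%, against 1.77%). TNFSF10, which encodes the death ligand TRAIL, was at -0.94. Of 14 TNF receptor genes 0 were higher and 2 were lower (14.3%, against 1.77% of all genes). These were CD40, with 41.8 in LIMA1 shRNA cells and 114 in control shRNA cells, and EDAR, the ectodysplasin receptor, at 13.9 with LIMA1 shRNA and 47.6 with control shRNA. With a pseudocount of 30, TNFSF12 (-0.83) and EDAR (-0.82) were under the size.

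The TNFSF9 promoter is shown because this gene was higher with LIMA1 shRNA in both treatments. It spans 250 bases before to 50 after the start of the gene in RefSeq (GRCh38.p14, chr19:6530776-6531075, plus strand). Capitals mark the TATA box TATAAA, 30 bases before the start, and 2 GC boxes GGGCGG, 88 and 68 bases before it. Each motif was searched on both strands, and TATAAA occurs in 11.5% and GGGCGG in 45.0% of the 35116 promoters in that table. The AP-1 letters TGANTCA, found in 7.71% of promoters, are not in this window.
TNFSF9: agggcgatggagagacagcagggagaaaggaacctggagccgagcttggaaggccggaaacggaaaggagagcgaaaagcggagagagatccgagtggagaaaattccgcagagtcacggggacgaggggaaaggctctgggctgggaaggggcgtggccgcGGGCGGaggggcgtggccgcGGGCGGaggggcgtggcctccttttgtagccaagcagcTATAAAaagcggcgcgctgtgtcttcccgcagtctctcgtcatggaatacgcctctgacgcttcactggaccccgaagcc

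Genes for the extracellular matrix, the protein scaffold that cells secrete and attach to, were among the higher genes. Of 36 matricellular, proteoglycan and fibre protein genes 9 were higher and 2 lower, against 1.34% and 1.77% of all genes, and the median of the list was 0.07. In untreated cells 3 of the 36 were higher and 1 lower, against 1.16% and 2.25% of all genes. FN1, which encodes fibronectin, the main ligand of several integrins, had 19376 normalized counts in LIMA1 shRNA cells and 8645 in control shRNA cells, 2.24-fold higher (2.18 to 2.30). HSPG2, the basement membrane proteoglycan perlecan, had 9262 with LIMA1 shRNA and 4021 with control shRNA. The microfibril genes FBN2 (3817 in LIMA1 shRNA cells and 1320 in control shRNA cells) and FBN1 (844 with LIMA1 shRNA and 375 with control shRNA) were both higher. TNC, which encodes the adhesion-modulating protein tenascin-C, had 70.8 with LIMA1 shRNA and 9.93 with control shRNA, a low level with a wide interval (7.13-fold, 3.64 to 15.5). The other higher members were PXDN, which cross-links collagen IV (1.69), NOV (1.18), ECM1 (1.12) and the basement membrane linker NID1 (1.02). NID1 was at 0.98 after upper-quartile scaling or scaling to equal totals, and at -0.74 in untreated cells. With a pseudocount of 30, TNC was at 1.34, while PXDN (0.97), NOV (0.92), ECM1 (0.84) and NID1 (0.73) were under the size, which left 5 of the 9.

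On the low side were CTGF, a matricellular protein and much-used YAP/TAZ target, with 79.3 in LIMA1 shRNA cells and 266 in control shRNA cells, and IGFBP7, a shared-read gene, at -1.08 (-0.96 with a pseudocount of 30). The YAP/TAZ target list of 29 genes also held a higher member, the muscle ankyrin gene ANKRD1 (222 in LIMA1 shRNA cells and 83.4 in control shRNA cells), and its median was -0.01. All 8 measured laminin genes, which build basement membranes, lay above 0 with a median of 0.51, and 0 of them reached 1. In untreated cells 6 of the laminin genes lay above 0, with a median of 0.36. LAMA5 had 19231 in LIMA1 shRNA cells and 10222 in control shRNA cells, LAMC1 13507 with LIMA1 shRNA and 8926 with control shRNA, and LAMB1 13032 with LIMA1 shRNA and 10112 with control shRNA. The 18 collagen genes did not share a direction. COL7A1, the collagen of anchoring fibrils, was higher (3878 in LIMA1 shRNA cells and 1844 in control shRNA cells), COL26A1 was lower (19.3 with LIMA1 shRNA and 95.3 with control shRNA), and the median was 0.18.

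Other matrix-linked genes were higher too. FRAS1, an extracellular protein of the epithelial basement membrane, had 1216 normalized counts in LIMA1 shRNA cells and 465 in control shRNA cells. ADAMTS16, a secreted metalloprotease gene, had 63.2 in LIMA1 shRNA cells and 13.9 in control shRNA cells, while MMP28 was lower, at 66.5 with LIMA1 shRNA and 206 with control shRNA; in the protease list of 24 genes they were the 2 past the size. Of 15 integrin genes, the receptors for many of these proteins, 11 lay above 0 (73.3%, against 54.7% of all genes) with a median of 0.17. ITGAX (1.11, at 48.2 with LIMA1 shRNA and 21.8 with control shRNA) alone reached 1. With a pseudocount of 30 it was at 0.59. ITGA2, a collagen receptor subunit, was at 0.81 and ITGA5, a fibronectin receptor subunit, at 0.75.

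Mucins, the large glycoproteins of mucus and of epithelial surfaces, showed the largest increase of any gene in absolute value. MUC5B, a gel-forming airway mucin, had 62248 normalized counts in LIMA1 shRNA cells and 29917 in control shRNA cells, 2.08-fold higher (2.05 to 2.11). In untreated cells its values were 26820 in LIMA1 shRNA cells and 24268 in control shRNA cells, a difference of 0.14. With nutlin-3a MUC16, which encodes the CA-125 antigen, had 649 with LIMA1 shRNA and 282 with control shRNA (1.20), and untreated it had 273 with LIMA1 shRNA and 252 with control shRNA (0.12). Whether the nutlin-3a and untreated differences themselves differ was not tested. The other measured mucins MUC19 (0.58, shared reads), MUC13 (0.04) and MUC1 (-0.27) were under the size.

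Long transcripts tended to lie above 0, and many matrix and mucin genes are long. The median difference was -0.03 for genes whose longest transcript is 1 to 2 kb, 0.13 for 845 genes of 8 to 12 kb and 0.17 for 258 genes of at least 12 kb, of which 74.8% lay above 0; in untreated cells the last was 0.12. With the median of genes of like length taken off, FN1 stood at 1.05, HSPG2 at 1.06, FBN2 at 1.38, TNC at 2.62 and MUC16 at 1.05. MUC5B (0.91), COL7A1 (0.96) and NID1 (0.97) were then below 1. The laminin median was 0.47 on this scale, the mucin median 0.43 and the collagen median 0.06.

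**Figure D2:**
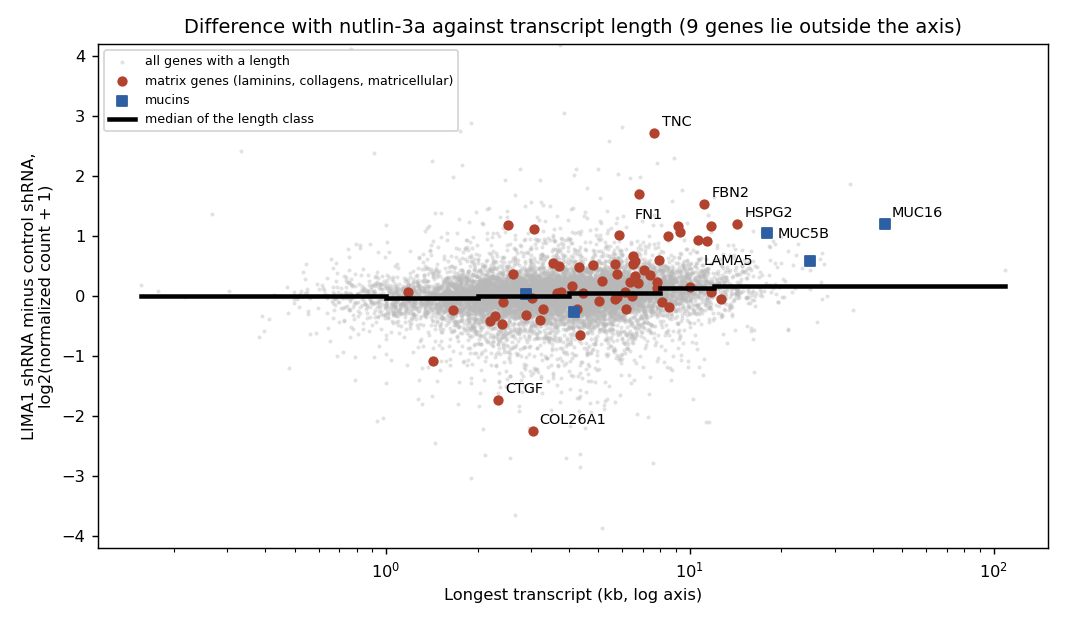
Each point is a gene, placed by its longest transcript (kb, log axis) and by LIMA1 shRNA minus control shRNA with nutlin-3a (log2 scale); red circles are the 62 matrix genes, blue squares the mucins and black bars the median of each length class. The class medians climb to 0.17 at 12 kb and above, while FN1, FBN2, HSPG2 and TNC lie more than 1 above 0.

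Genes of the actin cytoskeleton, where EPLIN acts, mostly lay within 1 of 0. Of 50 actin filament and focal adhesion genes 0 were higher and 1 was lower (2%, against 1.77% of all genes). The median was 0.06, against 0.03 over all genes. VIL1, which bundles the actin of microvilli, had 116 normalized counts in LIMA1 shRNA cells and 308 in control shRNA cells. FLNA, an actin cross-linker, had 40101 with LIMA1 shRNA and 29930 with control shRNA (0.42), and MYH9, a nonmuscle myosin heavy chain, 8533 with LIMA1 shRNA and 5898 with control shRNA (0.53). In the list of 34 LIM-domain actin proteins, LIMA1 included, ABLIM3 was higher and FHL1 (-1.14) and PDLIM2 (-1.07) were lower; with a pseudocount of 30 these stood at -0.76 and -0.92. ABLIM3, an actin-binding LIM protein, had 234 in LIMA1 shRNA cells and 66.5 in control shRNA cells, 3.51-fold higher (2.66 to 4.69).

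Junction genes, the other setting in which EPLIN is known, had a median of 0.00 over 31 genes, which turned to -0.04 with upper-quartile scaling and -0.05 with equal totals. EPCAM, an epithelial adhesion molecule, had 31.1 normalized counts in LIMA1 shRNA cells and 111 in control shRNA cells, and CDH3, P-cadherin, had 24.7 with LIMA1 shRNA and 53.6 with control shRNA. These were the 2 lower genes of the list (6.45%, against 1.77% of all genes), with 0 higher. CDH3 was at -0.61 with a pseudocount of 30. In untreated cells 5 of the 31 genes were lower, against 2.25% of all genes, and 0 higher, with a median of -0.09. The tight-junction claudin CLDN2 had 6178 in LIMA1 shRNA cells and 11201 in control shRNA cells (-0.86), and was at -1.14 untreated. E-cadherin, CDH1, had 4154 with LIMA1 shRNA and 3931 with control shRNA, and N-cadherin, CDH2, 483 with LIMA1 shRNA and 275 with control shRNA (0.81). Of 20 mesenchymal genes 2 were higher (10%, against 1.34% of all genes) and 0 lower. These 2 were FN1 and TNC, which the matricellular list also holds. The median was 0.04, turning to -0.01 under both other scalings, and VIM, the vimentin gene, was at -0.29.

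Several genes of secretory granules and of microvilli were among the lower ones. CHGB, a granin of secretory granules, had 251 normalized counts in LIMA1 shRNA cells and 1629 in control shRNA cells, 0.154 times the control value (0.134 to 0.177). Of 24 measured secretory granule and neuroendocrine genes 0 were higher and 3 lower (12.5%, against 1.77% of all genes), the others being SYP, synaptophysin (61.1 in LIMA1 shRNA cells and 177 in control shRNA cells), and SYT11 (19.3 with LIMA1 shRNA and 53.6 with control shRNA). The list's median was -0.04. A brush border and microvillus list of 18 genes was put together after values had been seen, so its count describes the choice as well as the cells. In it 5 were lower (27.8%) and 0 higher, against 1.77% and 1.34% of all genes, with a median of 0.02, which turned to -0.03 under both other scalings. MYO1A, the brush border myosin, had 276 in LIMA1 shRNA cells and 775 in control shRNA cells. ANKS4B, a microvillus scaffold protein, had 119 with LIMA1 shRNA and 354 with control shRNA, and ANPEP, a membrane peptidase, 37.5 with LIMA1 shRNA and 84.4 with control shRNA. The remaining lower members were CEACAM7 (-1.49) and VIL1. SYT11 (-0.76) and ANPEP (-0.76) were under the size with a pseudocount of 30.

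Plasma proteins that the liver makes form a second list chosen after values had been seen. Of its 28 measured genes 10 lay above 0 (35.7%, against 54.7% of all genes), and 5 were lower (17.9%, against 1.77%) and 0 higher. The median was -0.29, against -0.31 in untreated cells. F2, which encodes prothrombin, had 68.6 normalized counts in LIMA1 shRNA cells and 247 in control shRNA cells. RBP4, the plasma retinol carrier, had 79.3 with LIMA1 shRNA and 279 with control shRNA, and SERPINA1, alpha-1-antitrypsin, 89.0 with LIMA1 shRNA and 231 with control shRNA. CFB (188 in LIMA1 shRNA cells and 439 in control shRNA cells) and F7 (33.2 with LIMA1 shRNA and 78.4 with control shRNA) were lower as well; F7 was at -0.78 with a pseudocount of 30. The 3 fibrinogen chain genes differed by similar amounts at high values. FGA had 13695 in LIMA1 shRNA cells and 20457 in control shRNA cells (-0.58), FGB 13332 with LIMA1 shRNA and 20552 with control shRNA (-0.62), and FGG 11163 with LIMA1 shRNA and 17501 with control shRNA (-0.65). Complement C3 went the other way, at 6545 with LIMA1 shRNA and 3487 with control shRNA (0.91). HNF4A, a transcription factor that drives many liver and gut genes, had 625 in LIMA1 shRNA cells and 999 in control shRNA cells (-0.68), and CEBPA, another factor of liver cells, was at -0.56.

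The fibrinogen promoters are shown because these 3 genes form 1 cluster and had similar differences. They are given as RefSeq has them on GRCh38.p14, 5′ to 3′ on each gene's own strand, FGA at chr4:154590693-154590992 (minus strand), FGB at chr4:154562730-154563029 (plus strand) and FGG at chr4:154612607-154612906 (minus strand). For FGB the first of the starts listed was taken. Capitals mark CCAAT boxes, read as CCAAT or ATTGG and found in 34.6% of promoters, and the HNF1 letters GTTAAT, here as ATTAAC on the printed strand and found in 6.88%. FGA has CCAAT 58 and ATTAAC 52 bases before the start, FGB has CCAAT 196 and ATTAAC 51 bases before it, and FGG has ATTGG 17 bases before it and no HNF1 letters in this window.
FGA: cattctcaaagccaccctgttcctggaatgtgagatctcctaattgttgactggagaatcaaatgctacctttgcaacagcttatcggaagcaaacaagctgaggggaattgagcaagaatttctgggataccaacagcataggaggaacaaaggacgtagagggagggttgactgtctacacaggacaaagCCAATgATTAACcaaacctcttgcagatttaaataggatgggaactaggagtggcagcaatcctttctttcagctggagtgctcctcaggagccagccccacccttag
FGB: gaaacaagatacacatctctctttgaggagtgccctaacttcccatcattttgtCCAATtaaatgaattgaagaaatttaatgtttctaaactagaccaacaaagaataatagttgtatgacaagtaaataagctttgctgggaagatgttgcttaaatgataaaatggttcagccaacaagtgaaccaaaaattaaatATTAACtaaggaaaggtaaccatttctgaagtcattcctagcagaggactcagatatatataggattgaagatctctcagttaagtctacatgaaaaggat
FGG: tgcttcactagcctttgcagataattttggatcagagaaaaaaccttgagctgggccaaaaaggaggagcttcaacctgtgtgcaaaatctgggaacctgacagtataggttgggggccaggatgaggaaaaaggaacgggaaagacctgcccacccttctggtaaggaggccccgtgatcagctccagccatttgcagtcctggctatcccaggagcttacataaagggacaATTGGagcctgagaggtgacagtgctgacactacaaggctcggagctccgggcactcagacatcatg

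Several further genes with means of at least 150 were among the 20 lowest. SULT2B1, a cholesterol sulfotransferase, had 86.8 normalized counts in LIMA1 shRNA cells and 479 in control shRNA cells. ST6GAL2, which adds sialic acid to glycans, had 250 with LIMA1 shRNA and 1016 with control shRNA, and the kinase gene PSKH1 had 301 with LIMA1 shRNA and 1128 with control shRNA. ST3GAL1, another sialyltransferase, was higher, with 1721 in LIMA1 shRNA cells and 719 in control shRNA cells. SLCO2B1, an organic anion transporter, had 97.6 with LIMA1 shRNA and 309 with control shRNA, and DNER, a Notch-binding membrane protein, 86.8 with LIMA1 shRNA and 267 with control shRNA. DCDC2 (306 in LIMA1 shRNA cells and 1050 in control shRNA cells) had shared reads. HSPA2, named after its values were seen, is a heat shock family gene with 1064 in LIMA1 shRNA cells and 3021 in control shRNA cells. NPTX1, a secreted pentraxin named in the same way, had 5.36 with LIMA1 shRNA and 91.3 with control shRNA.

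Among signalling genes, lower members were ligands, receptors and inhibitors of different pathways. DKK1, a secreted Wnt inhibitor, had 4397 normalized counts in LIMA1 shRNA cells and 9408 in control shRNA cells. The Wnt receptor gene FZD8 had 87.9 with LIMA1 shRNA and 260 with control shRNA. In that list of 23 genes these 2 were lower (8.70%, against 1.77% of all genes) and 0 higher. ERBB3, a receptor of neuregulins, had 399 in LIMA1 shRNA cells and 994 in control shRNA cells, and its ligand gene NRG2 25.7 with LIMA1 shRNA and 90.3 with control shRNA, while the ligand gene NRG1 was at 0.75. FST, a secreted activin inhibitor, had 85.8 with LIMA1 shRNA and 178 with control shRNA, and the axon guidance factor SEMA3A 508 with LIMA1 shRNA and 1088 with control shRNA. CCL2, a monocyte chemokine, had 16.1 with LIMA1 shRNA and 45.7 with control shRNA. EPHA3, an ephrin receptor, was higher by 2.03. With a pseudocount of 30, FST (-0.84) and CCL2 (-0.72) were under the size.

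**Figure D3:**
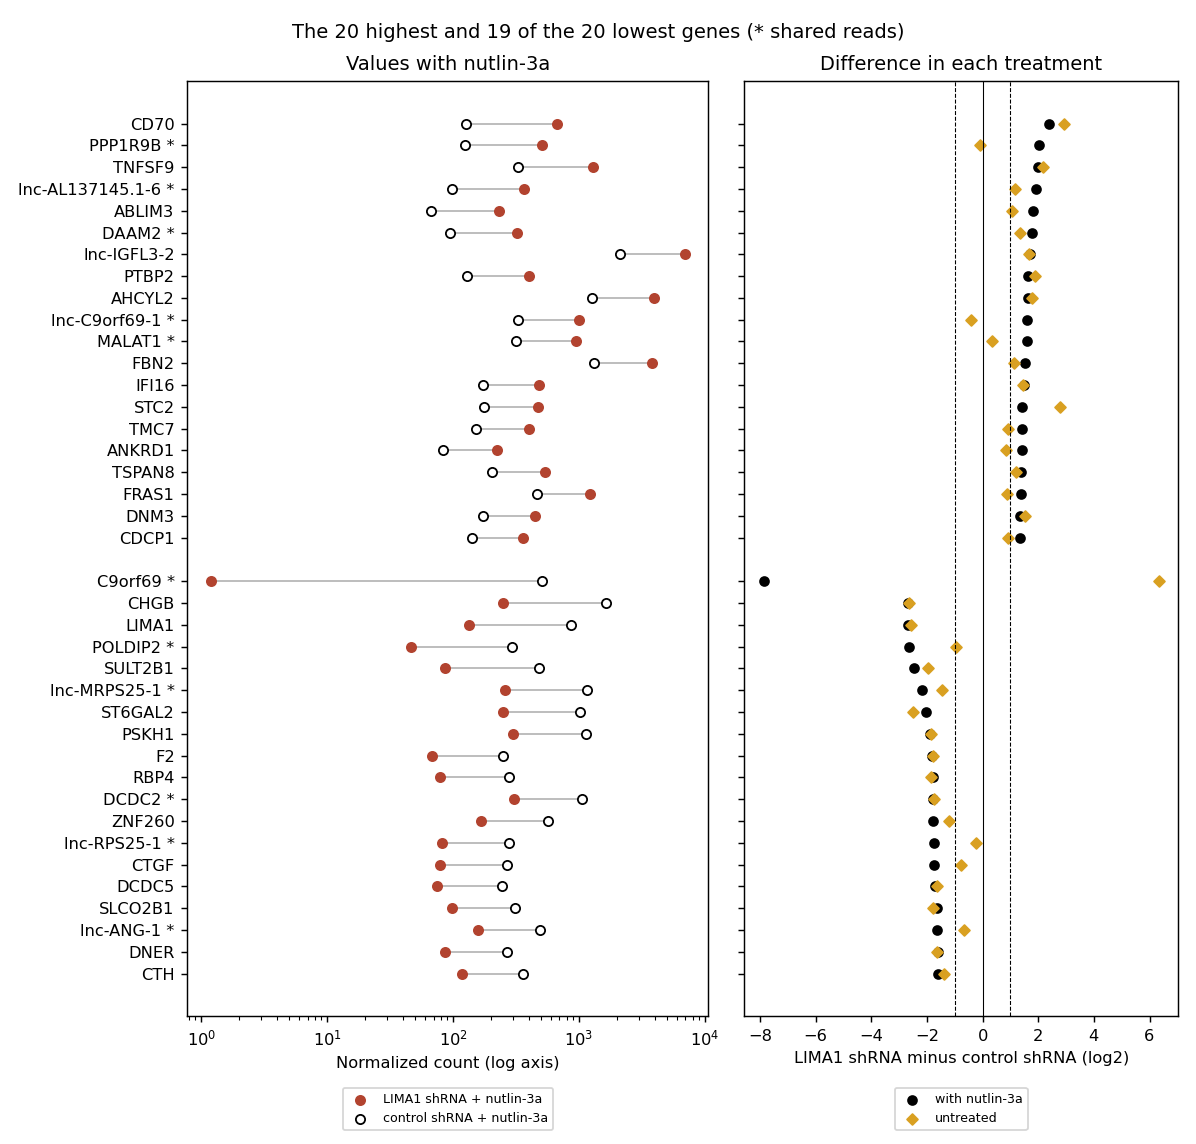
For the 20 highest and 19 of the 20 lowest genes with means of at least 150, the left side gives the normalized count with nutlin-3a (log axis) in LIMA1 shRNA cells (filled) and control shRNA cells (open), and the right side LIMA1 shRNA minus control shRNA with nutlin-3a (black) and untreated (yellow) on the log2 scale; a star marks shared reads. CD70, TNFSF9, CHGB, LIMA1, F2 and RBP4 have black and yellow marks on the same side past 1 or -1, while C9orf69 has them on opposite sides.

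Other higher genes with means of at least 150 had varied roles. AHCYL2, a relative of the enzyme that splits adenosylhomocysteine, had 3921 normalized counts in LIMA1 shRNA cells and 1261 in control shRNA cells, 3.11-fold higher (2.92 to 3.32). PTBP2, a splicing regulator, had 402 with LIMA1 shRNA and 128 with control shRNA. IFI16, a nuclear DNA sensor of the PYHIN family, had 479 in LIMA1 shRNA cells and 172 in control shRNA cells. Its neighbour PYHIN1 had 49.3 with LIMA1 shRNA and 20.8 with control shRNA, against 0 in both untreated libraries (0.64 with a pseudocount of 30), while the family members AIM2 and MNDA were at 0 in all 4. CDCP1, a surface protein phosphorylated by Src kinases, had 360 in LIMA1 shRNA cells and 142 in control shRNA cells, and the tetraspanin TSPAN8 535 with LIMA1 shRNA and 203 with control shRNA. SERPINB3 and SERPINB4, protease inhibitors with nearly the same sequence, summed to 276 in LIMA1 shRNA cells and 49.6 in control shRNA cells. Their neighbour SERPINB11 went the other way, at 218 with LIMA1 shRNA and 479 with control shRNA. Among noncoding RNAs, lnc-IGFL3-2 had 6914 in LIMA1 shRNA cells and 2123 in control shRNA cells. MALAT1, a nuclear noncoding RNA with shared reads, had 954 with LIMA1 shRNA and 318 with control shRNA. Of the 689 gene models named lnc-, 43 were higher (6.24%) and 23 lower (3.34%), against 1.34% and 1.77% of all genes. Of the 689, 361 had shared reads, and among all shared-read genes 3.49% were higher and 2.86% lower.

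The p53 targets lay above 0 by small amounts. Of 97 measured genes in 5 p53 target lists 79 were above 0 (81.4%, against 54.7% of all genes). The 1 called higher (1.03%, against 1.34%) is near the share over all genes, and 0 were lower. Their median was 0.21, against 0.03 over all 12794 genes; in untreated cells it was 0.07. CDKN1A, the gene of the cyclin-dependent kinase inhibitor p21, had 48106 normalized counts in LIMA1 shRNA cells and 34078 in control shRNA cells, 1.41-fold higher (1.39 to 1.43). Untreated, CDKN1A had 1178 with LIMA1 shRNA and 1066 with control shRNA. MDM2 had 33982 with LIMA1 shRNA and 27580 with control shRNA under nutlin-3a, and 1857 with LIMA1 shRNA and 1844 with control shRNA untreated. ALOX5, a lipoxygenase of leukotriene synthesis and the member past 1, had 854 in LIMA1 shRNA cells and 341 in control shRNA cells. Untreated, ALOX5 was at 1.03. The medians were 0.23 for arrest genes, 0.18 for cell death genes, 0.22 for repair genes, 0.20 for genes that control p53 and 0.23 for metabolism and secretion genes. TNFRSF10B, a receptor of TRAIL, was at 0.43 and ZMAT3, an RNA-binding p53 target, at 0.52. In untreated cells TNFRSF10B was at 0.49 and ZMAT3 at 0.24. The lowest member with nutlin-3a was SIVA1, at -0.84.

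Genes of mitosis and of DNA replication had medians on opposite sides of 0. Of 52 listed G2/M and mitosis genes 35 were measured, and 24 of these lay below 0, with a median of -0.19. Above 0 were 31.4%, against 54.7% of all genes. Their summed values were higher with LIMA1 shRNA, at 10956 against 9794 with control shRNA, and their untreated median was 0.01. In this list 0 were higher and 2 were lower (5.71%, against 1.77% of all genes). These were the kinesin KIF4A (24.7 normalized counts in LIMA1 shRNA cells and 55.6 in control shRNA cells, against 1592 with LIMA1 shRNA and 1437 with control shRNA untreated) and the ubiquitin-conjugating enzyme UBE2C (28.9 with LIMA1 shRNA and 59.6 with control shRNA). Of 40 S-phase and replication genes 29 lay above 0 (72.5%, against 54.7% of all genes). The median was 0.25, against 0.11 for the same genes untreated. RRM2, a subunit of ribonucleotide reductase, was lower all the same, with 45.0 in LIMA1 shRNA cells and 102 in control shRNA cells. KIF4A (-0.65), UBE2C (-0.60) and RRM2 (-0.82) were under the size with a pseudocount of 30.

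Amino acid response genes under the control of ATF4 had a median of 0.21 over 39 genes with nutlin-3a. For the same genes untreated the median was 0.70, and 11 were higher, against 1.16% of all genes. With nutlin-3a 3 were higher (7.69%, against 1.34% of all genes) and 1 lower (2.56%, against 1.77%). STC2, a secreted glycoprotein, had 468 normalized counts in LIMA1 shRNA cells and 176 in control shRNA cells, and PHGDH, the first enzyme of serine synthesis, 472 with LIMA1 shRNA and 196 with control shRNA. CBS and CTH, which act one after the other in making cysteine from homocysteine, went opposite ways. CBS had 256 in LIMA1 shRNA cells and 126 in control shRNA cells (1.02, and 0.97 under both other scalings, 0.87 with a pseudocount of 30), and CTH had 118 with LIMA1 shRNA and 361 with control shRNA. Sterol synthesis and uptake genes had a median of 0.23 over 32 genes, 25 of them above 0 (78.1%, against 54.7% of all genes). HMGCS1 was at 0.75 and none passed 1. Of 31 AP-1 and immediate early genes, 29 unfolded protein response genes, 34 NRF2 targets and 29 interferon-stimulated genes, 0 in each list passed 1 in either direction, with medians of -0.04, 0.08, 0.06 and 0.19.

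**Figure D4:**
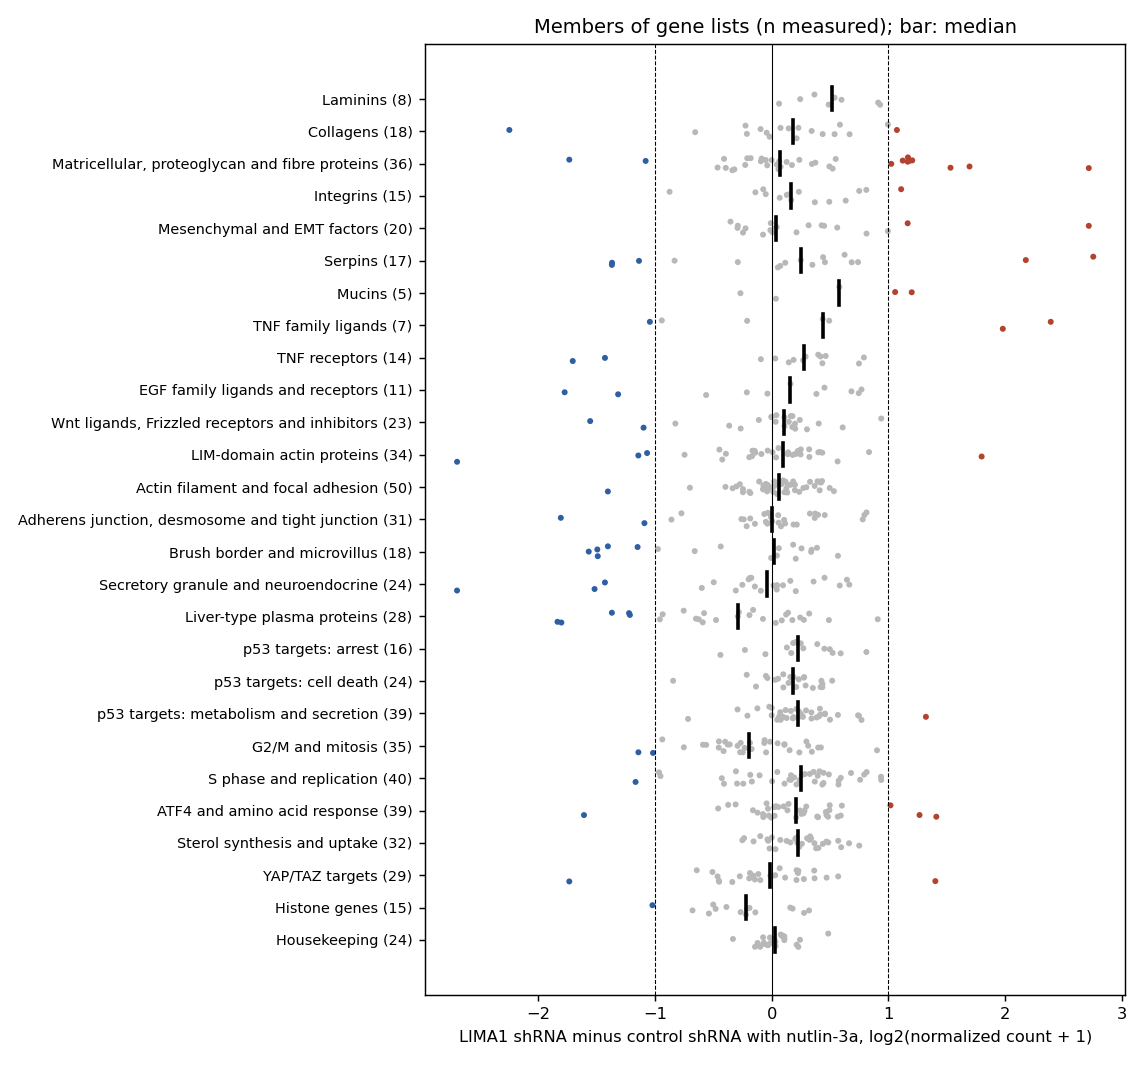
Each point is a measured member of 1 of 27 gene lists, placed by LIMA1 shRNA minus control shRNA with nutlin-3a on the log2(normalized count + 1) scale, red at 1 or above and blue at -1 or below; the black bar is the list's median and the number in brackets its measured members. Most medians lie within 0.25 of 0, the laminin and mucin medians are highest at 0.51 and 0.58, and the liver-type plasma protein median is lowest at -0.29.

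The untreated pair, which shares no library with the nutlin-3a pair, gives these genes a second reading in the same 2 cell populations. Of the same 12794 genes 149 (1.16%) were higher and 288 (2.25%) lower in untreated LIMA1 shRNA cells. In that pair 6939 of the 12794 lay above 0, against which the counts of kept signs are read. Of the 172 genes higher with nutlin-3a, 142 (82.6%) also lay above 0 untreated and 64 (37.2%) passed 1 there. Of the 226 lower genes, 210 (92.9%) lay below 0 untreated and 122 (54.0%) passed -1. The median difference of the higher genes was 1.32 with nutlin-3a and 0.81 untreated, and that of the lower genes -1.32 and -1.08. The members were picked for their nutlin-3a values, so a smaller untreated median is not by itself a weaker effect. Among genes not found to share reads or not checked, 106 of 116 higher and 175 of 180 lower genes kept their sign.

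Called genes were also looked up by their place in the genome. Of 11950 neighbouring pairs among the genes matched to RefSeq, 20 had both members called, 7 of them both higher, 8 both lower and 5 in opposite directions. Over all 12794 genes 3.11% were called in either direction. How many such pairs would arise without any link between neighbours was not tested. Apart from the TNFSF9, PYHIN1 and SERPINB3 pairs, the higher pairs were FRAS1 with ANXA3, SH3TC2 with ABLIM3, AHCYL2 with STRIP2 and KCNQ3 with LRRC6. ANXA3 (1.05) was at 0.9994 with equal totals, and SH3TC2 (1.0008) under 1 with both other scalings. With a pseudocount of 30, SH3TC2 (0.73), KCNQ3 (0.81) and LRRC6 (0.72) were under the size. Among the lower pairs were SUSD2 (1308 in LIMA1 shRNA cells and 3060 in control shRNA cells) with GGT5 (21.4 with LIMA1 shRNA and 99.3 with control shRNA), and ZNF260 (166 with LIMA1 shRNA and 569 with control shRNA) with ZNF529 (33.2 with LIMA1 shRNA and 114 with control shRNA). Zinc finger genes named ZNF were split by chromosome after values had been seen. The 133 on chromosome 19 had a median of -0.10 with 1 higher (0.752%) and 9 lower (6.77%), against 1.34% and 1.77% of all genes. Of these called members ZNF260 alone had a mean of at least 150, and the others lay at low values, where calls were most frequent. The 207 on other chromosomes had a median of 0.00 with 0 called, turning to -0.04 and -0.05 under the other scalings.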

How the data were processed

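RNA sequencing of A549 cells was read from 4 libraries, 1 per group. The values deposited by the authors are a signal for each gene model. Their steps show fragment counts scaled by 1 size factor per library. The value of 1 fragment was 1.07 in LIMA1 shRNA cells and 0.993 in control shRNA cells with nutlin-3a, and 0.990 in LIMA1 shRNA cells and 0.943 in control shRNA cells untreated. Of values between 0.5 and 1000 fragments, 85.5% to 86.3% lay within 0.1 of a whole number, under the 95% set for treating them as counts, so no count test was run. Per the submitters' processing notes, the genome build is hg19 and the tools were bcl2fastq 1.8.3, Bowtie2 2.0.12 and Cuffnorm 2.2.1, with no role given; for the annotation, nothing is given in the sources used here. Groups were taken from the titles, which write si where the protocols write shRNA.

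A pseudocount of 1 was added before taking log2, which understates the change of low genes. The members and lists were chosen with earlier results of these data known; the plasma protein, brush border, small RNA, PYHIN and split ZNF lists were added after values had been seen. Named are LIMA1, CDKN1A and MDM2, the 20 highest and 20 lowest genes with means of at least 150 and no small RNA name, the 10 largest changes in value each way, the 5 most abundant genes, up to 4 members and every called member of each list, genes at 0 in 1 of the 2 libraries, and neighbouring called pairs; the text gives a selection of these, and some named items are not reported here. Gene names and neighbours came from RefSeq GRCh38.p14 (11978 genes matched) and transcript lengths from GENCODE 29 (11926 genes, 93.2%). Promoters of CD70, TNFSF9, FGA, FGB and FGG were looked up in the RefSeq promoter table. The calling step was tested on simulated data. Alternatives were other pseudocounts, filters, scalings and sizes, and, added after seeing the data, leaving out lnc- models and taking off the median of genes of like length. Python 3.11.15, numpy 2.4.6, pandas 2.3.3, scipy 1.17.1 and matplotlib 3.10.9 were used. Fragments carry no molecular identifiers, and the intervals treat every fragment as an independent count. They leave out spread between replicates, since each group is 1 library.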

Additional observations from a re-analysis of the deposited data

Results flagged for a closer look

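For 11 genes the LIMA1 shRNA minus control shRNA difference passed 1 in size in opposite directions with nutlin-3a and untreated. Whether the 2 differences differ was not tested, since each rests on 1 library a side.

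C9orf69 was at -7.86 with nutlin-3a, with 1.20 normalized counts in LIMA1 shRNA cells and 510 in control shRNA cells, and at 6.33 untreated, at 210 with LIMA1 shRNA and 1.63 with control shRNA. Both C9orf69 and lnc-C9orf69-1, a model named after it, have shared reads. Which models they share them with was not determined. The sum of the 2 models was 998 in LIMA1 shRNA cells and 839 in control shRNA cells with nutlin-3a, a difference of 0.25, and 702 with LIMA1 shRNA and 656 with control shRNA untreated.

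RMRP, the RNA of the RNase MRP complex, was at 1.36 with nutlin-3a (93.3 in LIMA1 shRNA cells and 35.7 in control shRNA cells) and at -1.02 untreated (13.9 with LIMA1 shRNA and 29.2 with control shRNA). With a pseudocount of 30 its nutlin-3a difference was 0.91. LOC102724316 was at 1.65 with nutlin-3a (92.1 in LIMA1 shRNA cells and 28.7 in control shRNA cells) and at -1.58 untreated (24.98 in LIMA1 shRNA cells and 76.7 in control shRNA cells). No shared reads were found for these 2.

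The other 8 have shared reads. With nutlin-3a DYNLL1-AS1 was at 2.88, MINOS1-NBL1 at 1.18 and UBA6-AS1 at 5.88, against -5.95, -3.58 and -5.47 untreated. These 3 and LOC102724316 lie outside the rule for named genes and were chosen after their values were seen. With nutlin-3a lnc-AC127496.3-1 was at 1.51 and lnc-LTBP3-2 at 4.58, against -1.06 and -1.76 untreated. With nutlin-3a lnc-ARC-1 was at -1.0024, lnc-SEC14L1-1 at -1.79 and lnc-USP34-1 at -1.19, against 3.34, 1.01 and 1.18 untreated; with a pseudocount of 30 these 3 were under the size with nutlin-3a (-0.75, -0.90 and -0.96).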

How the results depend on the processing

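The counts of 172 higher and 226 lower genes depended on how low values were treated. A pseudocount of 30 gave 91 higher and 98 lower, and means of at least 150 gave 54 and 62. Without a filter 2448 were higher and 1688 lower, where 1 fragment against 0 reaches 1 in the LIMA1 shRNA library alone. A size of 2 gave 32 and 31. The counts stayed within 1.5 times of these under a pseudocount of 0.5 (174 and 232), upper-quartile scaling (158 and 261), equal totals (156 and 264), without shared-read genes (116 and 180), without lnc- models (129 and 203) and in genes with a transcript length (126 and 201), where taking off the median of like length gave 119 and 212. The scalings moved the median of all genes by -0.05. LIMA1 lay between -2.46 and -2.74 under its alternatives. No paired analysis was possible because each group has 1 library, and none could be left out. Depth limits genes near the floor of 3 fragments: with nutlin-3a this is 3.22 normalized counts in LIMA1 shRNA cells and 2.98 in control shRNA cells.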

Other observations

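Some of the largest changes in normalized value were at abundant genes under the size for a call. PKM, the glycolytic pyruvate kinase, had 105560 normalized counts in LIMA1 shRNA cells and 83468 in control shRNA cells (0.34). AHNAK2, a very large scaffold protein, had 26190 with LIMA1 shRNA and 14846 with control shRNA (0.82), and CPS1, the first enzyme of the urea cycle, 23779 with LIMA1 shRNA and 15134 with control shRNA (0.65). On the low side ALDH1A1, a retinaldehyde dehydrogenase and one of the 5 most abundant genes, had 225725 in LIMA1 shRNA cells and 287908 in control shRNA cells (-0.35). IGFBP3, which binds insulin-like growth factors, had 22573 with LIMA1 shRNA and 31128 with control shRNA (-0.46), SLC7A5, a transporter of large amino acids, 27680 with LIMA1 shRNA and 38027 with control shRNA (-0.46), and TGM2, a protein cross-linking enzyme, 25487 with LIMA1 shRNA and 33152 with control shRNA (-0.38).

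Among metabolic enzymes, AKR1C4, a hydroxysteroid dehydrogenase, had 98.6 normalized counts in LIMA1 shRNA cells and 19.9 in control shRNA cells. ALDH3B1 had 2427 with LIMA1 shRNA and 5001 with control shRNA under nutlin-3a (-1.04), and 3070 with LIMA1 shRNA and 2433 with control shRNA untreated (0.34). Of 45 UDP-glucuronosyl, glutathione and aldehyde enzyme genes 17 lay above 0 (37.8%, against 54.7% of all genes) and 28 below, with a median of -0.13. Of the 45, 2 were higher (4.44%, against 1.34%) and 3 lower (6.67%, against 1.77%). Keratins had 2 higher members among 12 (16.7%, against 1.34% of all genes). These were KRT20, with 56.8 in LIMA1 shRNA cells and 22.8 in control shRNA cells, and KRT222, at 71.8 with LIMA1 shRNA and 15.9 with control shRNA. KRT18 had 58266 with LIMA1 shRNA and 70306 with control shRNA (-0.27). SFTPD, a surfactant protein of the lung, had 19.3 in LIMA1 shRNA cells and 52.6 in control shRNA cells, the only gene past the size among 26 lung and foregut lineage genes. KRT20 (0.72) and SFTPD (-0.74) were under the size with a pseudocount of 30.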
